A study of Mus musculus with 10 samples.

Results

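The cell cycle was followed here through 45 genes: 13 that license and copy DNA, 18 that act in G2 and mitosis, 3 for cyclin E and its kinase CDK2, 5 for the D cyclins and their kinases CDK4 and CDK6, 3 inhibitors of cyclin-dependent kinases (CDKs) and 3 for the E2F and RB proteins. The genes were chosen by name, when earlier results of these data were known, and grouped by their known roles. Of the 45, 44 had a value among the 18193 genes measured. Ccnb1 is not analysed here. RNA was profiled on 1-colour expression arrays in 10 whole B16 tumors, a transplantable mouse melanoma, all of C57BL/6 strain background. The groups were 5 tumors of wild type genotype and 5 that were Bach2-deficient, with no treatment or age given in the labels. The lost part of Bach2 is not described there, nor whether host, tumor cells or both lacked it. A value is the log2 expression level of 1 probe set per gene, and a change is the Bach2-deficient minus the wild-type mean. The words rose and fell are kept for genes whose limma adjusted p, taken over all 18193 genes, was under 0.05. Whether the tumors were each grown in their own mouse is not stated, so every p-value rests on a spread between samples that may be technical.

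A dividing cell passes from G1 into S phase when D cyclins with CDK4 or CDK6, and then cyclin E with CDK2, phosphorylate the retinoblastoma protein RB and release E2F transcription factors. E2F switches on genes for DNA replication, and a later wave, driven by FOXM1 and B-MYB with the MuvB complex, switches on the genes of mitosis. CDK inhibitors of the CIP/KIP family (Cdkn1a, Cdkn1b) and the INK4 family (Cdkn2c) hold the cycle back. In a B16 tumor both the melanoma cells and activated lymphocytes divide, and a bulk measurement cannot tell fewer cells of a type from less RNA per cell.

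The sequences of some promoters show how the replication and mitosis groups differ in ways that were not used to choose them. RefSeq promoter windows (build GRCm38.p6, 250 bases before the transcription start and 50 from it on) were at hand for 35 of the 45 genes. E2F words (TTTCCCGC, TTTGGCGC, TTTCGCGC or TTTGCCGC, on either strand, overlaps allowed) were found in 6 of 11 replication genes, in 1 of 14 mitosis genes and in 2.61% of all 27025 genes with a window. The cell cycle homology words TTTGAA and TTTAAA, bound in such promoters by the MuvB complex, were found on either strand in 12 of 14 mitosis genes, in 3 of 11 replication genes and in 30.6% of all genes. CCAAT, the word of the factor NF-Y, was found in 12 of 14 mitosis genes, 8 of 11 replication genes and 41.1% of all genes. None of the 3 windows of the D cyclin and kinase group held an E2F or a cell cycle homology word. A match is a description of letters and not a shown binding site. The stretches below lie before the transcription starts of 2 replication genes and 3 mitosis genes, with the E2F and cell cycle homology words in capitals. Cdk1, which encodes the kinase that drives mitosis, holds both kinds of word. Counted from the start, the stretches span -120 to -31 (Mcm6), -170 to -131 (Mcm5), -130 to -81 (Mki67), -40 to -1 (Cdc20) and -140 to -1 (Cdk1). They run 5′ to 3′ on the gene's own strand.
Mcm6 (chr1:128359736-128359825, minus strand): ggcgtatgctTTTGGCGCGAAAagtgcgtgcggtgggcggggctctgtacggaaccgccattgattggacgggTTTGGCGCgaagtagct
Mcm5 (chr8:75109339-75109378, plus strand): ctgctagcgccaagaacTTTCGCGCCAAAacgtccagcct
Mki67 (chr7:135716460-135716509, minus strand): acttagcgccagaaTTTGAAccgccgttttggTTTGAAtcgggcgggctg
Cdc20 (chr4:118437344-118437383, minus strand): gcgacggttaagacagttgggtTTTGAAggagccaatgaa
Cdk1 (chr10:69352913-69353052, minus strand): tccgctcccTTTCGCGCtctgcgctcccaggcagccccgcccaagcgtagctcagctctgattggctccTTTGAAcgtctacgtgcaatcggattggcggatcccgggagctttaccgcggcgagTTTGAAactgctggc

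Several features of the whole arrays moved with genotype. Bach2 read 5.93 to 7.78 in wild type and 4.96 to 6.37 in Bach2-deficient tumors (change -1.07, SE 0.38, limma adjusted p = 0.0551), so the groups overlapped and the gene missed the threshold. The poly-A controls, bacterial transcripts added before labelling, differed by -2.09 (exact permutation p = 0.00794, the smallest that 5 against 5 allow), and Xist read 11.4 to 12.2 on the wild-type arrays and Bach2-deficient replicate 2 and 4.76 to 6.61 on the other 4. All 12 measured T cell markers rose (median change 2.73; mean level over the list 6.25 to 7.54 in wild type and 9.28 to 10.6 in Bach2-deficient tumors), as did 9 of 11 macrophage markers (9.02 to 10.1 against 10.5 to 11.3). Of 13 melanocyte markers 4 fell (11.8 to 12.1 against 11.2 to 11.9). Counts for fibroblast, endothelial and erythroid markers were 1 risen and 3 fallen of 10, 2 and 2 of 10, and 1 and 3 of 7 (levels 6.83 to 7.58 against 6.55 to 7.69, 5.22 to 5.53 against 5.08 to 5.78, and 5.96 to 7.66 against 4.48 to 5.37). The 1 risen fibroblast marker was Thy1, which is also among the T cell markers. In these 3 lists 3, 6 and 5 markers had a genotype mean below 4.98, where the dimmest 30% of genes lay. The part of these features in the results below was not tested. The poly-A controls read 11.9 to 12.4 in wild type and 9.93 to 10.2 in Bach2-deficient tumors. With no overlap, a difference in sample preparation and the genotype cannot be told apart in these arrays. When Xist (high or low), the mean of the melanocyte markers, or the mean of the T cell markers entered the limma fit, 0 of the 44 members passed. At an unadjusted p under 0.05 the melanocyte fit held 9 members that were higher and 2 lower, and the T cell fit 0 and 0. The share of all genes at that threshold was not counted. At an adjusted p under 0.05 the melanocyte fit called 593 rises and 251 falls among 18193 genes, and the T cell fit 0 and 0. The T cell marker means of the groups do not overlap, so in these arrays that level and the genotype cannot be told apart. In the Xist fit the genotype term rests on Bach2-deficient replicate 2 alone against wild type (median SE of the members 0.32, against 0.19 without the term). The melanocyte means of the groups overlap through Bach2-deficient replicate 1 alone (11.9, against up to 11.6 on the other 4). Neither fit can therefore decide the part of its term in the changes.

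Most cell cycle genes did not pass the test, and those that did lay mainly in the G1 control arm. Of 44 measured members 5 rose (11.4%, against 16.3% of all genes) and 4 fell (9.09%, against 12.4%), both shares a little below those of all genes. Cdk6, Ccnd3, Rb1, Cdkn1a and Mcm4 rose. E2f1, Mki67, Cdk4 and Ccnd2 fell. Groups did not overlap for 1 gene that was higher (Ccnd3; 11.2% of all genes) and 1 that was lower (E2f1; 7.67%). The median change of the 44 was -0.12, beside -0.064 over all genes. Both group means of every measured member were above 4.98, below which the dimmest 30% of genes lay. After centring each array on its median, which shifted the changes of all genes by -0.16, 3 members rose and 10 fell, where 12.6% of all genes rose and 26.5% fell, and the share of all calls that were rises moved from 56.7% to 32.2%. Repeated quantile normalization gave 4 rises and 8 falls, where 13.9% of all genes rose and 14.8% fell, and array weights 5 and 10, where 19.2% rose and 17.7% fell.

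**Figure D1:**
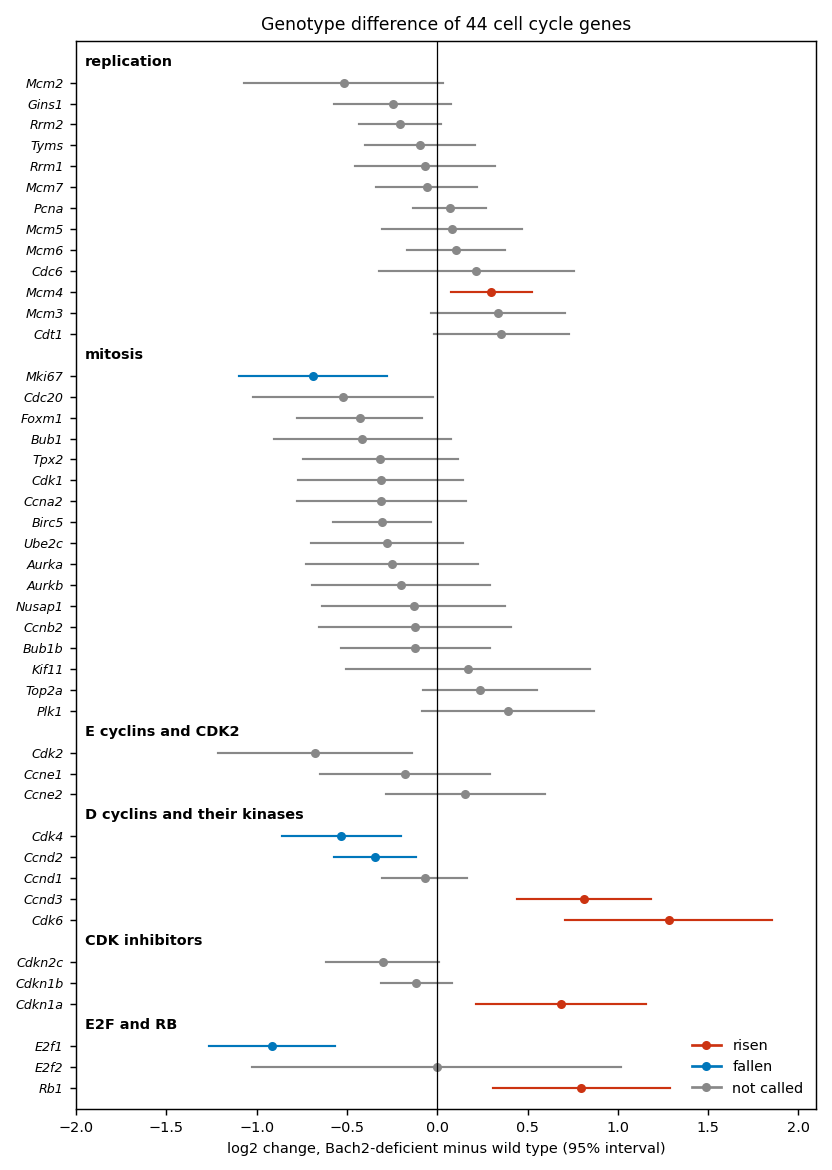
Log2 change (Bach2-deficient minus wild type, 5 tumors each) of the 44 measured genes in 6 functional groups, as points with 95% intervals from limma. The 5 genes that rose are red and the 4 that fell are blue; 7 of these 9 lie among the last 3 groups, and most replication and mitosis genes are grey.

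1 array stood apart in these genes, and it bears on most of what follows. Bach2-deficient replicate 1 was the highest of its group in 36 of the 44 members, and the highest of all 10 arrays in 21. It exceeded the wild-type mean in 13 of 13 replication genes and in 16 of 17 mitosis genes. The other 4 Bach2-deficient arrays exceeded it in 4 to 6 replication genes and in 2 or 3 mitosis genes. The mean of the mitosis genes on this array lay 0.37 above the wild-type mean, whereas the other 4 lay 0.26 to 0.49 below it. The same array had the lowest T cell marker mean of its group (9.28, against 9.73 to 10.6), the lowest macrophage mean (10.5, against 11.1 to 11.3) and the highest melanocyte mean (11.9, against 11.2 to 11.6). Whether its cell makeup sets its cell cycle values was not tested. How often this array was the highest over all genes was not counted. Array weights, fitted over all genes, also ranked it lowest (0.472, against 0.59 to 2.40 for the others). Its standing apart is therefore not shown to be particular to the cell cycle genes.

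**Figure D2:**
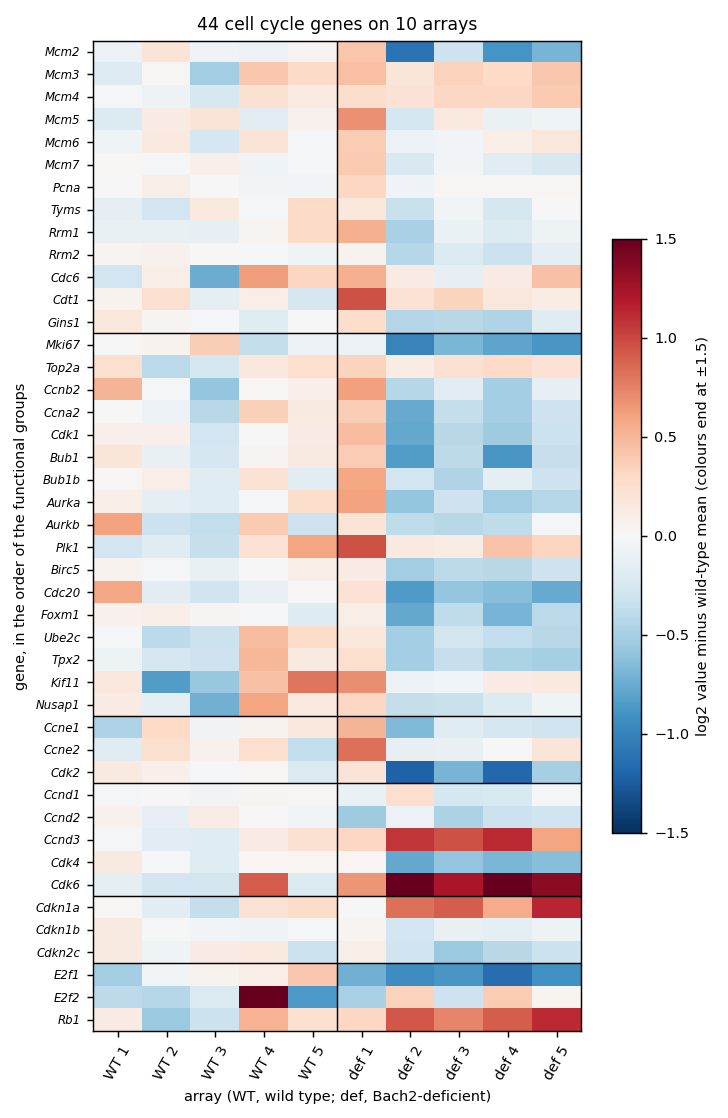
Log2 value minus the wild-type mean for 44 genes (rows, split by lines into replication, mitosis, cyclin E and CDK2, D cyclins and kinases, inhibitors, and E2F and RB) on 10 arrays (columns), with colours that end at 1.5 either way. The column of Bach2-deficient replicate 1 is red through nearly all replication and mitosis genes, whereas the other 4 Bach2-deficient columns are mostly blue in mitosis and mixed in replication.

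Among the D cyclins, Ccnd3 rose and Ccnd2 fell. Ccnd3 encodes cyclin D3, the D cyclin that developing lymphocytes depend on. It read 8.49, 8.35, 8.32, 8.64 and 8.74 in wild-type replicates 1 to 5 and 8.83, 9.58, 9.47, 9.63 and 9.11 in Bach2-deficient replicates 1 to 5. Every Bach2-deficient array lay above every wild-type array, with replicate 1 the closest to them. The means were 8.51 ± 0.18 and 9.32 ± 0.35 (SD, n = 5 each), a rise of 0.81 or 1.76-fold (SE 0.17, limma adjusted p = 0.0055). Of its 3 probe sets 2 pointed up and 1 down; the mean of all 3 did not pass (0.33, adjusted p = 0.190), nor did the most variable of them (0.79, adjusted p = 0.201). Ccnd2 encodes cyclin D2, an early growth factor response cyclin. It read 12.14, 11.95, 12.18, 12.06 and 12.03 in wild type and 11.54, 11.98, 11.60, 11.75 and 11.77 in Bach2-deficient tumors. Bach2-deficient replicate 2 alone lay within the wild-type range. The fall was 0.34 on the log2 scale (1.27-fold, SE 0.10, adjusted p = 0.0292), and all 7 of its probe sets pointed down, 6 of them past the threshold among 34945 single probe sets (10.1% of which fell). With array weights, which weight each array by its fit, the change was -0.28 and the call was lost (adjusted p = 0.0667), as it was without wild-type replicate 1 (0.0613) or 3 (0.0594) or Bach2-deficient replicate 3 (0.0697), 4 (0.0603) or 5 (0.0533).

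Ccnd1, cyclin D1, the main D cyclin of melanocytes and many other cells, read 11.45, 11.48, 11.43, 11.52 and 11.48 in wild type and 11.37, 11.73, 11.21, 11.25 and 11.45 in Bach2-deficient tumors. Its change was -0.07 (95% interval -0.31 to 0.17, adjusted p = 0.644). The Bach2-deficient arrays spread to both sides of the wild-type arrays. The next brightest of the 3 Ccnd1 probe sets fell by 0.34 (limma adjusted p = 0.0312 over single probe sets). On the brightest probe set of each gene, the D cyclins differed from each other in their response. The per-array difference Ccnd3 minus Ccnd2 was 1.16 higher in Bach2-deficient tumors (-2.40 ± 0.28 against -3.56 ± 0.21, n = 5 each; exact permutation p = 0.00794, adjusted p = 0.0278 over 7 pairs of related members). Ccnd3 minus Ccnd1 was 0.88 higher (exact p = 0.00794, adjusted p = 0.0278) and Ccnd2 minus Ccnd1 was lower, by -0.27 (exact p = 0.0159, adjusted p = 0.0278). With the mean of all probe sets, Ccnd3 minus Ccnd1 was 0.50 and did not pass (exact permutation adjusted p = 0.0667).

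The kinases of the D cyclins also moved in opposite directions. Cdk6, the partner that blood cells use most, read 7.83, 7.68, 7.70, 8.88 and 7.74 in wild type and 8.63, 9.63, 9.19, 9.46 and 9.32 in Bach2-deficient tumors. Wild-type replicate 4 lay above Bach2-deficient replicate 1, and the groups were otherwise apart. The rise of 1.28 (2.43-fold, SE 0.26, adjusted p = 0.00512) was the largest change among the members, and all 3 probe sets rose (14.1% of single probe sets did). Cdk4 read 11.40, 11.25, 11.08, 11.29 and 11.29 in wild type and 11.29, 10.50, 10.67, 10.58 and 10.62 in Bach2-deficient tumors. Bach2-deficient replicate 1 sat at the wild-type level, and the other 4 lay below every wild-type array. Cdk4 fell by 0.53 on the log2 scale (1.44-fold, SE 0.15, adjusted p = 0.0233) in all 3 of its probe sets. The fall was 0.67 without Bach2-deficient replicate 1 (adjusted p = 0.000668), and the call was lost without wild-type replicate 1 (0.0537) or Bach2-deficient replicate 2 (0.0634), 3 (0.0517), 4 (0.0612) or 5 (0.0562). Cdk6 minus Cdk4 was 1.81 higher in Bach2-deficient tumors (-1.48 ± 0.69 against -3.29 ± 0.50, n = 5 each; exact permutation p = 0.0159, adjusted p = 0.0278). Ccnd3 and Cdk6 rose on arrays where T cell markers rose too, and their part in these changes was not tested.

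**Figure D3:**
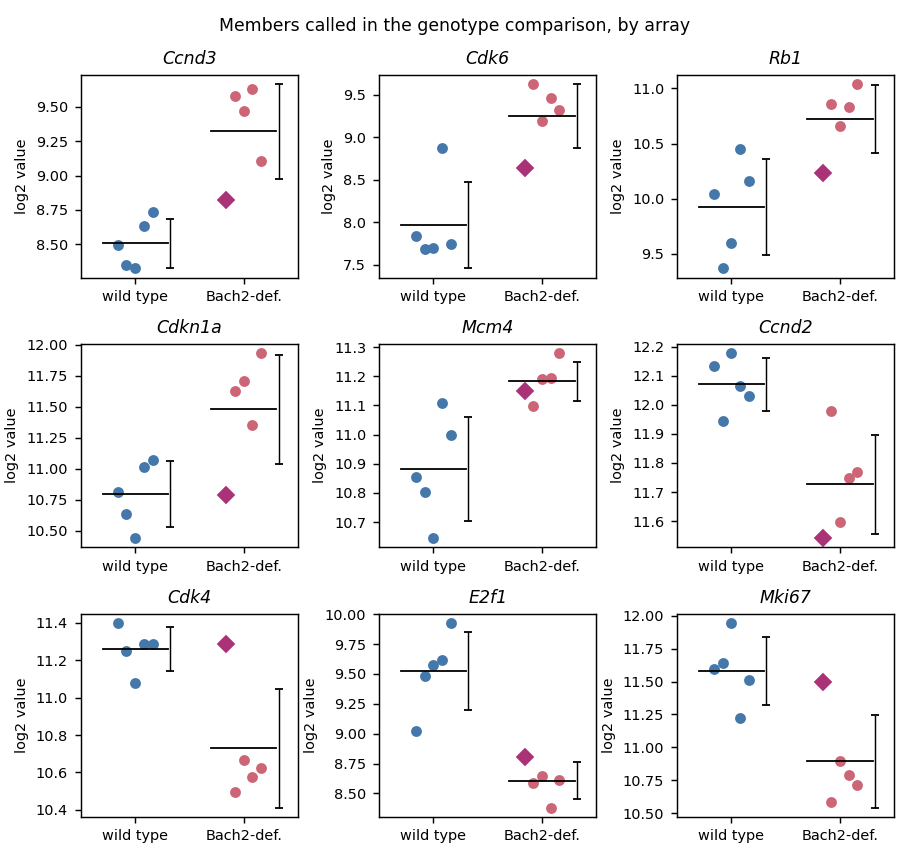
Log2 value on each array for the 9 members that rose or fell (wild type blue, Bach2-deficient red, Bach2-deficient replicate 1 a purple diamond), with lines at the means and bars of 1 SD (n = 5 each) and axes that do not start at 0. Replicate 1 lies nearest the wild-type arrays for Ccnd3, Cdk6, Rb1, Cdkn1a, Cdk4, E2f1 and Mki67.

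Of the CDK inhibitors, 1 of 3 rose, where 16.3% of all genes did. Cdkn1a, which encodes p21, a p53 target that binds CDK complexes, read 10.82, 10.63, 10.44, 11.02 and 11.08 in wild type and 10.78, 11.63, 11.71, 11.36 and 11.93 in Bach2-deficient tumors. Replicate 1 lay within the wild-type range, and the other 4 lay above it. The rise was 0.69 or 1.61-fold (SE 0.21, adjusted p = 0.0354), and both of its probe sets rose, the dimmer one by 1.17 (adjusted p = 0.00175 over single probe sets). The call was lost with median centring (0.53, adjusted p = 0.0672) and on dropping wild-type replicate 1, 2 or 3 or any of Bach2-deficient replicates 2 to 5 (adjusted p = 0.0603 to 0.0830). Cdkn1b, which encodes p27, changed by -0.12 (95% interval -0.31 to 0.08, adjusted p = 0.345), and Cdkn2c, which encodes the CDK4 and CDK6 inhibitor p18, by -0.30 (interval -0.61 to 0.01, adjusted p = 0.133). The per-array difference Cdkn1b minus Cdkn1a was -0.80 lower in Bach2-deficient tumors (exact permutation p = 0.0238, adjusted p = 0.0333 over 7 pairs), a call lost without wild-type replicate 1, 2 or 3 or Bach2-deficient replicate 5 (exact permutation adjusted p = 0.0556 to 0.0667).

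Downstream of the kinases, Rb1 rose and E2f1 fell. Rb1, which encodes the retinoblastoma protein, read 10.05, 9.37, 9.60, 10.45 and 10.16 in wild type and 10.23, 10.86, 10.66, 10.83 and 11.04 in Bach2-deficient tumors. Replicate 1 lay among the wild-type arrays and the other 4 above them all. The rise was 0.80 or 1.74-fold (SE 0.22, adjusted p = 0.0220). It was lost without wild-type replicate 3 (0.0501) or Bach2-deficient replicate 2 (0.0556), 4 (0.0540) or 5 (0.0556). E2f1 encodes an activator of S phase genes. It read 9.02, 9.48, 9.57, 9.62 and 9.93 in wild type and 8.80, 8.59, 8.65, 8.38 and 8.61 in Bach2-deficient tumors, with no overlap. It fell by 0.92 on the log2 scale (1.89-fold, SE 0.16, adjusted p = 0.00221), also without replicate 1 (-0.97, adjusted p = 0.00210). This rests on 1 of 3 probe sets: the other 2, with wild-type means of 5.88 and 5.48 against 9.52, changed by 0.01 and 0.10 (adjusted p = 0.981 and 0.576), and the mean of the 3 did not pass (-0.27, adjusted p = 0.148). E2f2, a second activator that is high in red cell precursors, changed by -0.0035 (95% interval -1.03 to 1.02, adjusted p = 0.997). Wild-type replicate 4 read 9.80 for E2f2 and the other 9 arrays 7.02 to 8.27. The difference E2f2 minus E2f1 did not pass (0.91, exact permutation p = 0.143); without wild-type replicate 4 it was 1.37 (exact permutation adjusted p = 0.0278).

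Of the 13 genes for replication 1 rose (7.69%, against 16.3% of all genes) and 0 fell (against 12.4%) in the limma test. At an unadjusted p under 0.05 the counts were also 1 and 0, and the share of all genes at that threshold was not counted. Above 0 lay 7 changes and below it 6, with a median of 0.068 beside -0.064 over all genes. Mcm4, a subunit of the MCM helicase that unwinds DNA, read 10.85, 10.80, 10.65, 11.11 and 11.00 in wild type and 11.15, 11.10, 11.19, 11.19 and 11.28 in Bach2-deficient tumors. The groups overlapped by wild-type replicate 4 and Bach2-deficient replicate 2 alone. The rise was 0.30 or 1.23-fold (SE 0.10, adjusted p = 0.0478). It was lost with median centring (0.14, adjusted p = 0.230), with repeated quantile normalization (0.20, adjusted p = 0.103) and on dropping any array except wild-type replicate 4 or 5 (adjusted p = 0.0580 to 0.105). The other MCM subunits changed by -0.52 (Mcm2, adjusted p = 0.142), 0.34 (Mcm3, 0.157), 0.08 (Mcm5, 0.750), 0.11 (Mcm6, 0.543) and -0.06 (Mcm7, 0.751); Mcm5 and Mcm6 were below 0 with median centring (-0.078 and -0.054), and Mcm3 with its most variable probe set (-0.11). The helicase loaders Cdc6 and Cdt1 changed by 0.22 (adjusted p = 0.531) and 0.36 (0.141), and Gins1, of the GINS complex that activates the helicase, by -0.25 (0.227).

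The replication fork clamp Pcna varied little, from 12.42 to 12.54 in wild type and from 12.41 to 12.49 on 4 Bach2-deficient arrays, with replicate 1 at 12.77. Its change was 0.07 (95% interval -0.13 to 0.27, adjusted p = 0.596), and it was below 0 with median centring (-0.092). The nucleotide supply genes changed by -0.07 (Rrm1), -0.21 (Rrm2, both ribonucleotide reductase subunits) and -0.10 (Tyms, thymidylate synthase), with adjusted p = 0.797, 0.156 and 0.623. Mcm2 read 10.53 to 10.81 in wild type, whereas Bach2-deficient replicates 1 to 5 read 11.03, 9.51, 10.31, 9.74 and 9.92. Replicate 1 was the highest of all 10 arrays and the other 4 the lowest. Replicate 1 was the highest of its group in 12 of the 13 replication genes.

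Of 17 measured mitosis genes 1 fell (5.88%, against 12.4% of all genes) and 0 rose (against 16.3%) in the limma test. At an unadjusted p under 0.05 these counts were 4 and 0, which were not counted over all genes. Below 0 lay 14 changes, with a median of -0.28 beside -0.064 over all genes. Mki67, which encodes the proliferation antigen Ki-67 that coats mitotic chromosomes, read 11.59, 11.64, 11.95, 11.23 and 11.51 in wild type and 11.49, 10.59, 10.90, 10.79 and 10.71 in Bach2-deficient tumors. Replicate 1 was among the wild-type arrays and the other 4 lay below them all. The fall was 0.69 on the log2 scale (1.61-fold, SE 0.19, adjusted p = 0.0192), and the call was lost without Bach2-deficient replicate 2 (-0.61, adjusted p = 0.0530). Cdc20, the activator of the anaphase-promoting complex, read 10.29, 9.54, 9.42, 9.61 and 9.71 in wild type and 9.93, 8.87, 9.13, 9.08 and 8.96 in Bach2-deficient tumors; its change of -0.52 (SE 0.22) did not pass (adjusted p = 0.106). Foxm1, the factor that drives the mitosis genes, changed by -0.43 (adjusted p = 0.0625), the spindle checkpoint kinase gene Bub1 by -0.41 (0.184) and the survivin gene Birc5 by -0.31 (0.0884). The cyclin A2 gene Ccna2, Cdk1 and the spindle assembly gene Tpx2 each changed by -0.31 (adjusted p = 0.291, 0.274 and 0.247). The Aurora kinase genes Aurka and Aurkb changed by -0.25 and -0.20 (0.404 and 0.525). The ubiquitin-conjugating enzyme gene Ube2c changed by -0.28 (0.295), and Ccnb2 (cyclin B2), the checkpoint gene Bub1b and the spindle gene Nusap1 by -0.12, -0.12 and -0.13 (0.725, 0.652 and 0.692). The 3 changes above 0 were those of Polo-like kinase Plk1 (0.39, 0.194), topoisomerase Top2a (0.24, 0.237; -0.28 with the mean of its probe sets) and the spindle motor Kif11 (0.17, 0.700; -0.0046 with repeated quantile normalization).

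The cyclin E genes changed by -0.18 (Ccne1, 95% interval -0.65 to 0.29, adjusted p = 0.554) and 0.15 (Ccne2, interval -0.29 to 0.60, 0.584), and Ccne2 was below 0 with median centring (-0.0051) or repeated quantile normalization (-0.022). Their partner Cdk2 read 11.64, 11.57, 11.47, 11.50 and 11.28 in wild type and 11.69, 10.28, 10.79, 10.32 and 10.99 in Bach2-deficient tumors. Replicate 1 was the highest of all 10 arrays, and the other 4 were the lowest. The change of -0.68 (SE 0.24) did not pass (adjusted p = 0.0600); it passed with the dim genes left out, which lowers the number tested to 12735, and with array weights, median centring, repeated quantile normalization or the mean of the probe sets. Ccne2 minus Ccne1 differed by 0.33 (exact permutation p = 0.0714, adjusted p = 0.0833) and passed without Bach2-deficient replicate 3 (0.40, exact permutation adjusted p = 0.0463).

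Leaving out Bach2-deficient replicate 1 raised the count of falls from 4 to 16 of 44 (36.4%, against 15.4% of all genes in that fit) and left 4 rises (9.09%, against 17.1%). Of the 9 members called with all arrays 8 were also called there, and Mcm4 was not (0.31, adjusted p = 0.0580). Mitosis genes fell in 8 of 17 cases: Mki67 (-0.84), Cdc20 (-0.71), Bub1 (-0.61), Foxm1 (-0.56), Cdk1 (-0.51), Ccna2 (-0.48), Aurka (-0.46) and Birc5 (-0.41), with adjusted p from 0.00199 to 0.0481. Of the replication genes Mcm2 (-0.75), Gins1 (-0.37) and Rrm2 (-0.27) fell, with adjusted p = 0.00538, 0.0208 and 0.0462. Cdk2 (-0.90) and Cdkn2c (-0.40) fell too (adjusted p = 0.00270 and 0.0318), beside Cdk4, Ccnd2 and E2f1. Replicate 1 was singled out by its values of these genes, so these counts are no independent evidence. Without any other single array the falls numbered 2 to 4: 2 without wild-type replicate 1 or Bach2-deficient replicate 2, 3, 4 or 5. Over all 18193 genes those fits called 1388 to 2323 falls, against 2807 without Bach2-deficient replicate 1.

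**Figure D4:**
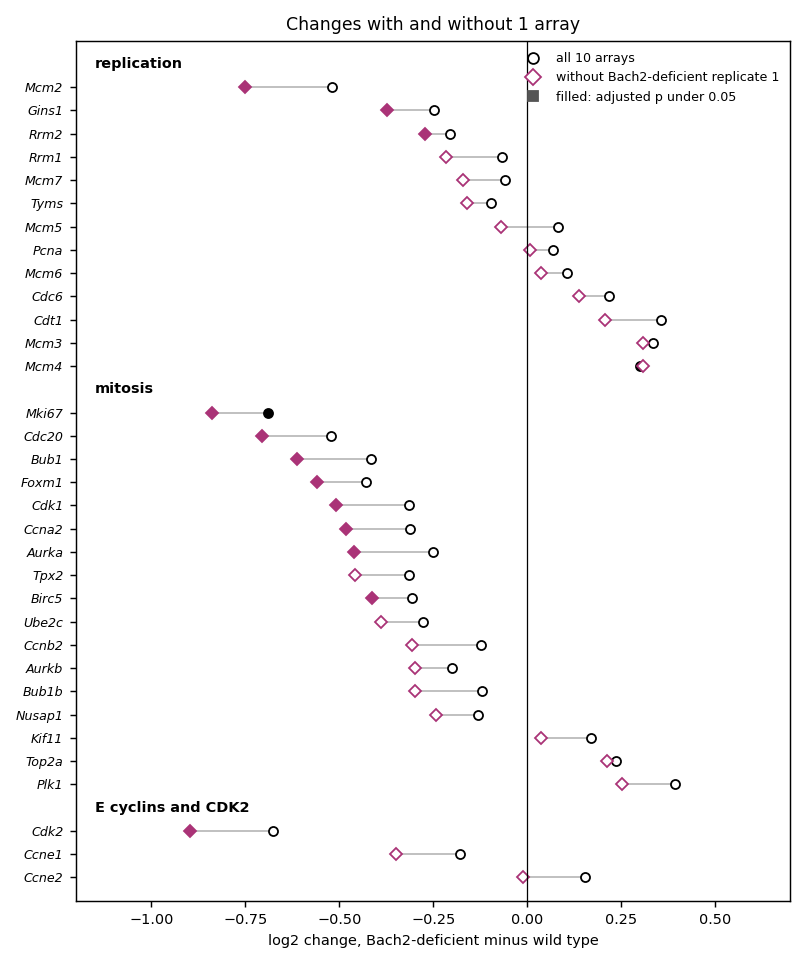
Log2 change (Bach2-deficient minus wild type) of the replication, mitosis and cyclin E and CDK2 genes with all 10 arrays (circles) and without Bach2-deficient replicate 1 (diamonds); filled marks have a limma adjusted p under 0.05. With all arrays 2 of these 33 genes are filled, Mcm4 and Mki67, and without replicate 1 the filled ones number 12, each of them a fall.

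Other genes of the same pathways were counted beside the members. Of 46 further replication genes 1 rose (2.17%, against 16.3% of all genes) and 4 fell (8.70%, against 12.4%), with a median of -0.11: Pola2, a non-catalytic subunit gene of DNA polymerase α, rose by 0.80 (adjusted p = 0.0198), although 2 of its 3 probe sets pointed down. Pold1, the catalytic subunit of DNA polymerase δ, fell by 1.61, the clamp loader gene Dscc1 by 0.85 and Rfc2, another clamp loader gene, by 0.75 (adjusted p = 0.0113, 0.0339 and 0.00823). Of 62 further mitosis genes 1 rose (1.61%) and 8 fell (12.9%, near the share of all genes), with a median of -0.24. The condensin II gene Ncapd3 rose by 0.69. Incenp and Cdca8 encode Aurora B's partners in the chromosomal passenger complex and fell by 1.19 and 1.05 (SE 0.25 and 0.18). Of the 5 probe sets of Incenp 4 pointed down and 1 fell, and of the 3 of Cdca8 2 pointed down and 1 fell. Aurkb, the Aurora B gene, did not pass (-0.20, limma adjusted p = 0.525). The condensin gene Ncapd2 fell by 1.02. Without Bach2-deficient replicate 1 the falls in these 2 lists numbered 17 and 25, where 15.4% of all genes fell. With median centring they numbered 16 and 24, where 26.5% of all genes fell, and with array weights 14 and 24, where 17.7% did.

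Among 24 further inhibitor, pocket protein, E2F and MuvB genes 5 rose and 5 fell (20.8% each, against 16.3% and 12.4% of all genes), with a median of -0.095. The RB relative Rbl2 (p130), which with E2f4 represses cell cycle genes in resting cells, rose by 1.55 (SE 0.29, limma adjusted p = 0.00338). E2f4 rose by 0.84 (SE 0.15, 0.00229) and the MuvB gene Lin54 by 0.65 (SE 0.18, 0.0203). These were the 3 of the 24 genes that were higher with no overlap between groups, where 11.2% of all genes were. Tfdp2, a dimer partner of E2F, fell by 2.07 (SE 0.35, adjusted p = 0.00213), Skp2, the ubiquitin ligase subunit that removes p27, by 0.80 and the repressor gene E2f6 by 0.78. Of 19 DNA damage checkpoint genes 5 rose (26.3%) and 2 fell (10.5%), with a median of 0.089. Ppm1d, a phosphatase that ends p53 signalling, rose by 0.99, the checkpoint clamp gene Rad9a by 0.74 and the histone gene H2ax by 0.66, while Brca2 and Brca1 fell by 0.69 and 0.49. Of 16 p53 target and growth arrest genes 4 rose and 4 fell (25.0% each), with a median of 0.33. The anti-proliferative genes Btg2 and Btg1 rose by 2.31 and 0.69 and Plk3, which was dim in wild type (4.59), by 1.08, while the p53 targets Zmat3, Phlda3 and Ei24 fell by 1.53, 1.28 and 0.60. The groups did not overlap for these 3 rises and 3 falls, which were named as the largest called changes. Of the 16 genes 4 were higher and 4 lower with no overlap, against 11.2% and 7.67% of all genes. T cell markers rose on the same arrays by a median of 2.73.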

How the data were processed

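The authors deposited log2 values, made with RMA and Partek per the submitters' processing notes (versions: not given in the sources used here). That they are log2 follows from their range (1.99 to 14.4, array medians 5.80 to 5.88), and they were analysed unchanged. No detection calls were used, and precision is limited by how many arrays there are. Groups came from the sample titles. Probe sets with 1 symbol in the platform annotation (34945 of 45101) were named, and a gene was represented by the one with the highest mean over the 10 arrays (18193 genes). The genotype difference was tested on both sides with lmFit and eBayes of limma (version 3.58.1, R version 4.3.3), with Benjamini-Hochberg adjustment over all genes, and the script was tested on simulated data. Pairs of related members were compared by 2-sided exact permutation tests of per-array differences (252 arrangements), adjusted over 7 pairs. All members are accounted for; of each further pathway list at most the 3 largest called changes in each direction are named. The members and lists were chosen with earlier results of these data known. Promoter windows are RefSeq's (GRCm38.p6). Alternatives were other moderation, weights, scaling, filters and probe set rules, covariates, a replicate block and leaving out each array.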

Additional observations from a re-analysis of the deposited data

Results flagged for a closer look

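In 10 of 88 groups of 5 arrays the highest or lowest array stood far from the other 4 (a gap of over 0.71 of the group's range). For a single group chance alone flags about 1 in 20. The 88 groups were read on the same 10 arrays and are not independent, so their count cannot be set against that rate. Such flags were not counted over all genes. Of the 10 flags 7 were Bach2-deficient replicate 1, always as the highest: Pcna at 12.8 (others up to 12.5), Cdt1 at 10.8 (others up to 10.2), Aurka at 8.77 (7.60 to 7.86), Cdc20 at 9.93 (8.87 to 9.13), Tpx2 at 10.8 (others up to 10.2), Kif11 at 9.46 (8.69 to 8.91) and Cdk4 at 11.3 (10.5 to 10.7). Wild-type replicate 4 was high for Cdk6, at 8.88 (7.68 to 7.83), and for E2f2, at 9.80 (7.02 to 7.66). Wild-type replicate 3 was low for Cdk1, at 10.3 (10.6 to 10.7).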

How the results depend on the processing

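Cdk6, Ccnd3 and E2f1 kept their calls in all 10 fits that left out 1 array, and Cdk6 in 19, E2f1 in 18, Ccnd3 and Mki67 in 17, Rb1 in 14, Cdk4 in 13, Ccnd2 in 11, Cdkn1a in 10 and Mcm4 in 7 of all 22 alternatives. Leaving out 1 array gave 2270 to 3120 rises and 1388 to 2807 falls over all 18193 genes. Among the members it gave 2 to 5 rises and 2 to 16 falls. These were 0 to 3 falls and 0 to 1 rises for replication and 0 to 8 falls for mitosis. For the D cyclins and their kinases there were 0 to 2 falls, and for the cyclin E genes and Cdk2 0 to 1 falls. The CDK inhibitors had 0 to 1 calls in either direction and E2F and RB 0 to 1 rises. Among the further lists it gave 0 to 6 rises and 2 to 17 falls for replication, 0 to 3 and 5 to 25 for mitosis, and 3 to 7 and 1 to 3 for the DNA damage checkpoint. It turned the direction of Ccnb2 (-0.31 to 0.0046), Nusap1 (-0.31 to 0.018), Kif11 (-0.039 to 0.37), Rrm1 (-0.22 to 0.038), Mcm5 (-0.070 to 0.17), Ccne2 (-0.012 to 0.23) and E2f2 (-0.22 to 0.47). It moved the calls of Cdkn1b minus Cdkn1a (-1.01 to -0.70), E2f2 minus E2f1 (0.60 to 1.37) and Ccne2 minus Ccne1 (0.20 to 0.40).

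The cause of the following shifts was not tested unless stated. With array weights, which ranked Bach2-deficient replicate 1 lowest (0.472), 10 members fell, where 17.7% of all genes did: 1 replication gene, 5 mitosis genes, 1 of the cyclin E genes and Cdk2, 1 of the D cyclins and their kinases and 1 CDK inhibitor, among others. Of the further lists 2 replication genes rose and 14 fell, 24 mitosis genes fell and 4 DNA damage checkpoint genes fell. Mcm5 (-0.054) and E2f2 (0.19) turned. Median centring, which by its construction shifts every change (by a median of -0.16), gave 3 rises and 10 falls among the members, with 0 rises and 1 fall for replication, 4 falls for mitosis, 1 for the cyclin E genes and Cdk2, and 0 rises and 1 fall for the inhibitors. Of the further lists 16 replication, 24 mitosis and 4 DNA damage checkpoint genes fell, and Mcm5 (-0.078), Mcm6 (-0.054), Pcna (-0.092) and Ccne2 (-0.0051) turned. Repeated quantile normalization gave 8 falls, where 14.8% of all genes fell (3 for mitosis, 1 for the cyclin E genes and Cdk2, 1 for the inhibitors) and 0 rises for replication; of the further lists 0 replication genes rose and 13 fell, 0 mitosis genes rose and 14 fell, 4 DNA damage checkpoint genes fell and 3 inhibitor, pocket protein, E2F and MuvB genes rose. Mcm5 (-0.070), Mcm6 (-0.042), Kif11 (-0.0046) and Ccne2 (-0.022) turned. Rises made up 48.4% of all calls there.

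Over all 18193 genes the fit used in the Results called 2962 rises and 2264 falls, and trended and robust moderation 2945 and 2330. The mean of probe sets called 2972 and 2216, and the most variable probe set 2910 and 2101. With dim genes left out the calls were 2960 and 2083 of 12735. Trended and robust moderation gave 2 rises among further replication genes. Leaving out dim genes, which lowers the number tested, gave 1 fall among the cyclin E genes and Cdk2. The mean of probe sets gave 1 fall for replication, 1 for the cyclin E genes and Cdk2, 0 for E2F and RB and 1 rise for the D cyclins and their kinases; 1 DNA damage checkpoint gene fell and 7 p53 target and growth arrest genes rose. Mcm6 (-0.0017), Top2a (-0.28) and E2f2 (0.063) turned, and Ccnd3 minus Ccnd1 was 0.50. The most variable probe set gave 1 fall for replication, 1 rise for the D cyclins and their kinases, 2 rises and 8 falls among further replication genes and 2 rises among further mitosis genes, and turned Mcm3 (-0.11) and Top2a (-0.98). At an adjusted p under 0.01, a stricter threshold, 2 members rose and 1 fell. There were 0 calls for replication, mitosis and the inhibitors, 0 falls for the D cyclins and 0 rises for E2F and RB. The further lists held 0 rises and 1 fall for replication, 0 and 3 for mitosis and 2 and 0 for the DNA damage checkpoint. For inhibitors, pocket proteins, E2F and MuvB they held 2 and 3. How many of all genes passed this threshold was not counted.

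Same-numbered tumors shared only a number: the correlations of their deviations were 0.324, 0.0062, 0.221, 0.0895 and 0.0628, and 2 of 5 arrays matched their own number best. With the number as a replicate block Mcm4 (limma adjusted p = 0.0740) and Ccnd2 (0.0860) lost their calls and Cdc20 gained one (0.0161). In that fit 0 replication genes rose, 2 mitosis genes and 1 of the D cyclins and their kinases fell, and 0 DNA damage checkpoint genes fell. Over all 18193 genes it called 2842 rises and 2110 falls. A sign-flip test over the 5 pairs, which cannot go below an exact p of 0.0625, left Ccnd2 minus Ccnd1 (-0.27), Ccnd3 minus Ccnd1 (0.88), Ccnd3 minus Ccnd2 (1.16), Cdk6 minus Cdk4 (1.81) and Cdkn1b minus Cdkn1a (-0.80) at an adjusted exact p of 0.0875.

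With the Xist term, the melanocyte covariate or the T cell covariate, each group of members had 0 rises and 0 falls, and each further list 0 calls, except 1 fall in mitosis with the Xist term and, with the melanocyte covariate, 2 falls among p53 target and growth arrest genes and 1 rise in replication. As given above, genotype in the Xist fit rests on Bach2-deficient replicate 2, and the melanocyte means overlap through Bach2-deficient replicate 1 alone. The Xist term turned Mcm5 (-0.26), Mcm6 (-0.088), Pcna (-0.052), Kif11 (-0.079), Ccne2 (-0.13), Ccnd1 (0.25) and E2f2 (0.35). The melanocyte covariate turned Mcm2 (0.10), Mcm7 (0.18), Tyms (0.12), Rrm1 (0.37), Gins1 (0.055), Ccnb2 (0.48), Ccna2 (0.28), Cdk1 (0.23), Bub1 (0.23), Bub1b (0.26), Aurka (0.30), Aurkb (0.22), Ube2c (0.14), Tpx2 (0.16), Nusap1 (0.36) and Ccne1 (0.24). The T cell covariate, with a median SE of 0.57 for the members against 0.19 without it, turned Mcm2 (0.69), Mcm3 (-0.12), Mcm7 (0.59), Tyms (0.48), Rrm1 (0.63), Rrm2 (0.32), Cdc6 (-0.32), Gins1 (0.74), Mki67 (0.36), Ccnb2 (1.32), Ccna2 (0.44), Cdk1 (0.71), Bub1 (1.06), Bub1b (0.44), Aurka (0.94), Aurkb (1.14), Birc5 (0.30), Cdc20 (1.00), Foxm1 (0.55), Ube2c (0.13), Tpx2 (0.12), Nusap1 (0.13), Cdk2 (1.08), Ccnd3 (-0.25), Cdk4 (0.27), Cdkn1b (0.32) and Cdkn2c (0.46).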

Other observations

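The 44 members were read by 108 probe sets, of which 8 rose and 15 fell among 34945 single probe sets (14.1% and 10.1% of which did). Of the 34 members with more than 1 probe set 12 had probe sets that pointed both ways, and for 0 members were probe sets called in both directions. For Rrm1 one of the dimmer probe sets fell by 1.42 (adjusted p = 0.0053), while the brightest changed by -0.07 and the other by 0.55. For Ccnd1 the brightest probe set changed by -0.07 and the next brightest fell by 0.34 (adjusted p = 0.0312). For Foxm1 all 4 probe sets pointed down. Only the dimmest of them fell, by 0.31, with means of 3.43 in wild type and 3.12 in Bach2-deficient tumors. Both means lie below 4.98, under which the dimmest 30% of genes lay. The brighter ones did not pass (limma adjusted p = 0.0716 to 0.305 over single probe sets). For Bub1b 1 of 3 probe sets fell. For Mcm4 the brightest probe set did not pass among single probe sets (0.30, adjusted p = 0.0586), and the second rose by 0.42 (adjusted p = 0.0200).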
